A study of Gallus gallus with 48 samples.

Results

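Proteasome subunits and ubiquitin-conjugating enzymes were followed in cultured pituitary cells of the chicken embryo under 12 treatments. They were taken by symbol from the annotation of the array: 49 genes whose symbol starts with PSMA, PSMB, PSMC, PSMD, PSME, PSMF, PSMG or UBE2, of 6428 genes in the annotation. Of these, 13 encode the core particle (7 PSMA and 6 PSMB genes), 15 were counted with the regulatory particle (5 PSMC and 10 PSMD genes), 6 with its activators, inhibitor and assembly factors (PSME, PSMF and PSMG), and 15 carry UBE2 symbols. The classes follow the symbols alone, and PSMD9 and PSMD10, counted with the regulatory particle, are chaperones of its assembly and no subunits. The genes were represented by 95 probes, and 46 of the 49 had values on enough arrays to be tested. PSMA5, PSMD9 and UBE2O did not.

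The proteasome is the protease that degrades proteins tagged with ubiquitin. Its barrel-shaped core is built from rings of PSMA subunits, which control entry, around rings of PSMB subunits, some of which hold the proteolytic sites. The regulatory particle caps the barrel, recognises ubiquitin chains, removes them and unfolds the substrate with its ring of PSMC ATPases. UBE2 enzymes (E2s) receive activated ubiquitin, or a related modifier, and pass it on with the help of a ligase. Subunits of the core and of its caps are needed in fixed proportions, and in mammalian cells their genes are often regulated together. The roles given below are known mainly from mammals and yeast.

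Cells from embryonic day 11 were dispersed, plated in serum-free medium, left to attach and then treated. Cells of 6 groups first received cycloheximide (CHX, an inhibitor of translation, 10 µg/ml) for 1.5 h and then corticosterone (CORT, the main glucocorticoid of birds, 1e-09 M) for 1.5, 3, 6, 12 or 24 h, or no CORT, a group called CHX alone. The other 6 groups had no CHX and received CORT for the same durations or not at all, a group called untreated. Each group held 4 samples, 48 in total. The labels speak of biological replicates but name neither separate cell preparations nor animals, so a p-value reflects only how far these samples spread. No group without CORT was kept beyond 0 h, so duration of CORT and time in culture cannot be told apart. In the groups given CHX, the same holds for duration of CORT and time since CHX was first given.

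Each sample was hybridised to a two-colour cDNA array against 1 pool made of all 48 samples, and the values are log2 ratios to that pool. A value of 0 therefore means the level of the pool, and ratios of different genes do not rank their RNA levels. A difference between groups is given on this log2 scale, and it counts as called at a Benjamini-Hochberg adjusted p under 0.05 over all 11195 features tested (5632 named genes and 5563 unnamed probes). In such bulk samples fewer cells of a type and less RNA per cell cannot be told apart.

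Arrays carried values for 14562 to 15840 probes. Over all probes the correlation between any pair of arrays ran from -0.76 to 0.87. Within a group it ran from -0.69 to 0.79, with a median of 0.30, and the median between arrays of different groups was 0.09. Per the labels every sample was labelled with Cy3 and the pool with Cy5, but whether the deposited ratio is sample over pool or the reverse is not stated, and arrays of one orientation that oppose each other leave the direction unsettled. It is read here as sample over pool, which is likely because FKBP5, a classical glucocorticoid target that is no proteasome gene, lay above its 0 h group in 10 of 10 comparisons with CORT (0.62 to 1.82). With the sign turned, every difference below changes sign and every count of called genes keeps its size. Arrays numbered 1 stood apart from those numbered 2 to 4 in most groups, as the proteasome genes show below. The calls of PSMD13, UBE2J1 and PSMA1 are therefore given also without each replicate number.

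Few genes of the system were called, at a share near that of all features. PSMD13, a subunit of the lid of the regulatory particle, was lower after 12 h and 24 h of CORT following CHX than in CHX alone. UBE2J1, an E2 anchored in the membrane of the endoplasmic reticulum that acts in the disposal of misfolded proteins, was higher in cells given CHX before 6 h and 24 h of CORT than in cells given CORT alone. PSMA1, a subunit of the outer ring of the core, was lower in cells given CHX before 24 h of CORT. These 3 genes were called in at least 1 of 16 comparisons by limma's moderated test, 6.52% of the 46 tested, against 9.05% of all features. Each of the 3 was measured by 1 probe with values. With the sign of the ratio turned, the differences would be 0.82 and 0.67 for PSMD13, -0.37 and -0.35 for UBE2J1 and 1.13 for PSMA1.

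**Figure D1:**
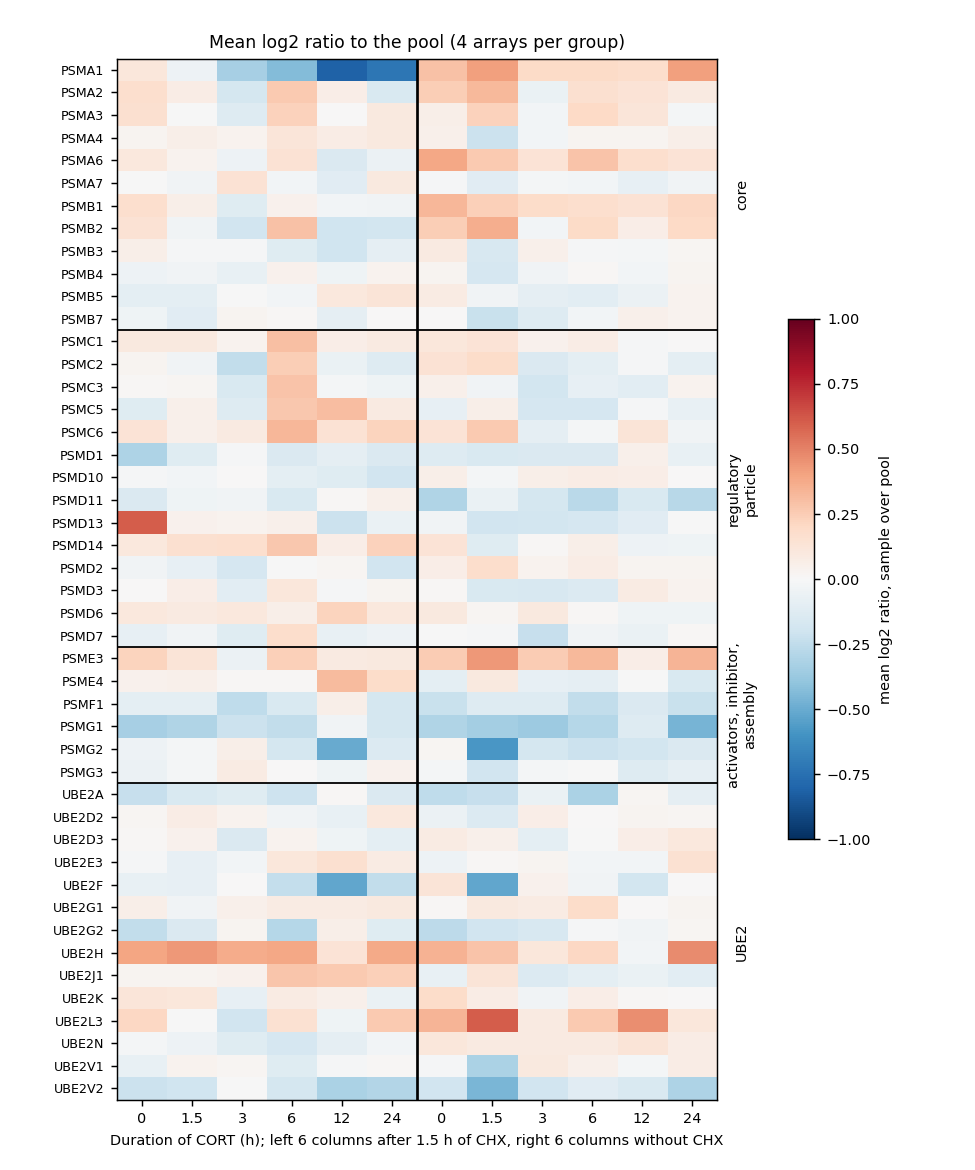
Mean log2 ratio to the pool (colour, red above and blue below the pool) of the 46 tested genes (rows, by class) in the 12 groups (columns, duration of CORT in h). The left 6 columns are the groups after CHX and the right 6 those without, with 4 arrays per group. PSMD13 stands out in CHX alone with a mean of 0.61, and PSMA1 in CHX then CORT 12 h and 24 h with means of -0.81 and -0.72.

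No gene of the system was called for CORT without CHX at any duration. Members called by limma numbered 0 of 46 at 1.5, 3, 6, 12 and 24 h, against 0%, 0.0268%, 0.0983%, 0.0179% and 0.0179% of all features called. At an unadjusted p under 0.05 the members numbered 6 at 1.5 h (13%, against 6.05% of all features), 0 at 3 h, 0 at 6 h, 1 at 12 h (UBE2H) and 0 at 24 h, where the shares of all features were 1.8%, 2.05%, 2.52% and 2.13%. The 6 genes at 1.5 h were PSMA4, PSMB3, PSMD14, PSMG2, UBE2F and UBE2V1. All 6 lay below untreated, as did 4.83% of all features at that p.

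PSMG2, a chaperone that helps to assemble the ring of PSMA subunits, had the smallest p at 1.5 h of CORT. Its log2 ratios were -0.82, -0.78, -0.56 and -0.16 in the CORT 1.5 h samples, against -0.02, -0.09, 0.03 and 0.14 in untreated samples. All 4 CORT samples lay below all 4 untreated ones, and the difference was -0.60 (SE 0.16, limma adjusted p = 0.434). UBE2F, an E2 for the ubiquitin-like protein NEDD8, had -0.74, -1.07, -0.19 and -0.08 in CORT 1.5 h samples, against 0.02, 0.11, 0.22 and 0.15 in untreated samples. These groups did not overlap either (difference -0.64, SE 0.17, adjusted p = 0.434), and the first 2 CORT samples were far lower than the others. UBE2F was averaged over 2 probes that hardly correlated (r = 0.05), and 1 of them had a value on all 48 arrays. PSMB4, PSMD14, UBE2V1 and UBE2V2 were also lower in every CORT 1.5 h sample than in any untreated one, which makes 6 genes without overlap (13%, against 3.05% of all features, and 2.06% in this direction). UBE2V1 and UBE2V2 are partners of UBE2N without catalytic activity of their own.

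By 3 h of CORT the PSMG2 ratios were between -0.28 and -0.08, and those of UBE2F between -0.09 and 0.27, which overlaps untreated. UBE2H, an E2 that works with a large multi-subunit ligase, had a mean of -0.03 ± 0.42 after 12 h of CORT and 0.35 ± 0.13 in untreated cells (SD, n = 4 each), with a difference of -0.38 (SE 0.18, adjusted p = 1.00). The ranges overlapped, and at 24 h of CORT the mean was 0.47 ± 0.23. PSMB5, the core subunit with the chymotrypsin-like site, lay between -0.28 and 0.01 in CORT 6 h samples and between 0.02 and 0.23 in untreated samples, without overlap, a difference of -0.18 (SE 0.10, adjusted p = 1.00). Of all features 1.3% did not overlap between these groups, and 0.5% in this direction. Untreated replicate 1 (0.23) stood far above the other untreated samples (0.02 to 0.04). PSMB5 was averaged over 3 measured probes, of which 1 pair was opposed (r = -0.62).

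For CHX alone against untreated, limma called 0 of 46 members (0.0179% of all features), and 1 gene, PSMD13, had an unadjusted p under 0.05 (2.17%, against 2.38%). PSMD13 had log2 ratios of 0.19, 1.40, 0.63 and 0.21 in CHX alone, against 0.19, -0.27, -0.12 and 0.05 in untreated samples. The lowest CHX sample lay just above the highest untreated one, and replicates 2 and 3 carried most of the difference of 0.64 (SE 0.18, 95% interval 0.27 to 1.02, adjusted p = 0.941). Of all features 1.21% did not overlap between these groups. PSMA6, an outer-ring subunit of the core, had a mean of 0.11 ± 0.26 in CHX alone and 0.39 ± 0.25 in untreated cells, and UBE2F one of -0.08 in CHX alone and 0.13 in untreated cells. Neither passed the test.

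In cells pretreated with CHX, PSMD13 was the only gene of the system called between the CORT groups and CHX alone, which also differ in time since CHX. Called members numbered 0 of 46 at 1.5, 3 and 6 h (0.0179%, 0.0268% and 1.13% of all features) and 1 of 46 at 12 h and at 24 h (1.13% and 2.3% of all features), PSMD13 both times. At an unadjusted p under 0.05 the counts were 1, 2, 2, 7 and 4 from 1.5 h to 24 h, beside 2.3%, 6.85%, 9.61%, 11.4% and 12.2% of all features.

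PSMD13 had log2 ratios of -0.58, -0.47, -0.08 and 0.26 in CHX then CORT 12 h, against 0.19, 1.40, 0.63 and 0.21 in CHX alone. One CORT sample, replicate 4, lay among those of CHX alone. The difference was -0.82 (SE 0.18, 95% interval -1.20 to -0.45, limma adjusted p = 0.0166). In CHX then CORT 24 h the ratios were 0.01, 0.00, -0.22 and -0.04, all below those of CHX alone, with a difference of -0.67 (SE 0.18, adjusted p = 0.0387). Of all features 6.93% did not overlap between these 24 h and CHX alone samples. The group that stood apart was CHX alone: its mean was 0.61 ± 0.57, and the means of the other 11 groups lay between -0.22 and 0.05. At 1.5, 3 and 6 h after CHX the means were 0.04, 0.04 and 0.05, close to that of untreated cells (-0.04).

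Both PSMD13 calls were lost without single arrays, in CHX alone and in the CORT groups. Leaving out CHX alone replicate 2 made the differences smaller, and leaving out replicate 3 hardly changed them. Without CHX alone replicate 2 the differences were -0.56 (adjusted p = 0.11) and -0.41 (adjusted p = 0.312), and without CHX alone replicate 3 they were -0.82 (adjusted p = 0.0688) and -0.66 (adjusted p = 0.117). The 12 h call was also lost without CHX then CORT 12 h replicate 1 (-0.70, adjusted p = 0.106), and the 24 h call without any 1 of the 4 CHX then CORT 24 h replicates (-0.70 to -0.62, adjusted p = 0.0602 to 0.107). A fit of the 2 groups alone called neither (adjusted p = 0.382 and 0.261). With a replicate number left out of all groups, both calls were kept without number 1, at -0.84 (adjusted p = 0.0336) and -0.83 (adjusted p = 0.0214). Both were lost without number 2 (-0.48, adjusted p = 0.311, and -0.43, adjusted p = 0.502) and without number 3 (-0.86, adjusted p = 0.336, and -0.61, adjusted p = 0.33). Without number 4 the 12 h call was kept (-1.11, adjusted p = 0.00895) and the 24 h call lost (-0.81, adjusted p = 0.0741).

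Of the 7 genes at an unadjusted p under 0.05 after 12 h of CORT following CHX (15.2%, against 11.4% of all features), PSMA1 had the largest difference from CHX alone (-0.92, SE 0.35, adjusted p = 0.235), ahead of PSMD13. PSMG2 (-0.45, adjusted p = 0.176) and UBE2F (-0.44, adjusted p = 0.263) followed. PSMC5, an ATPase of the regulatory particle, lay the other way (0.43, SE 0.20, adjusted p = 0.406). PSMB3, a structural subunit of the inner ring, had a difference of -0.25 (adjusted p = 0.293).

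**Figure D2:**
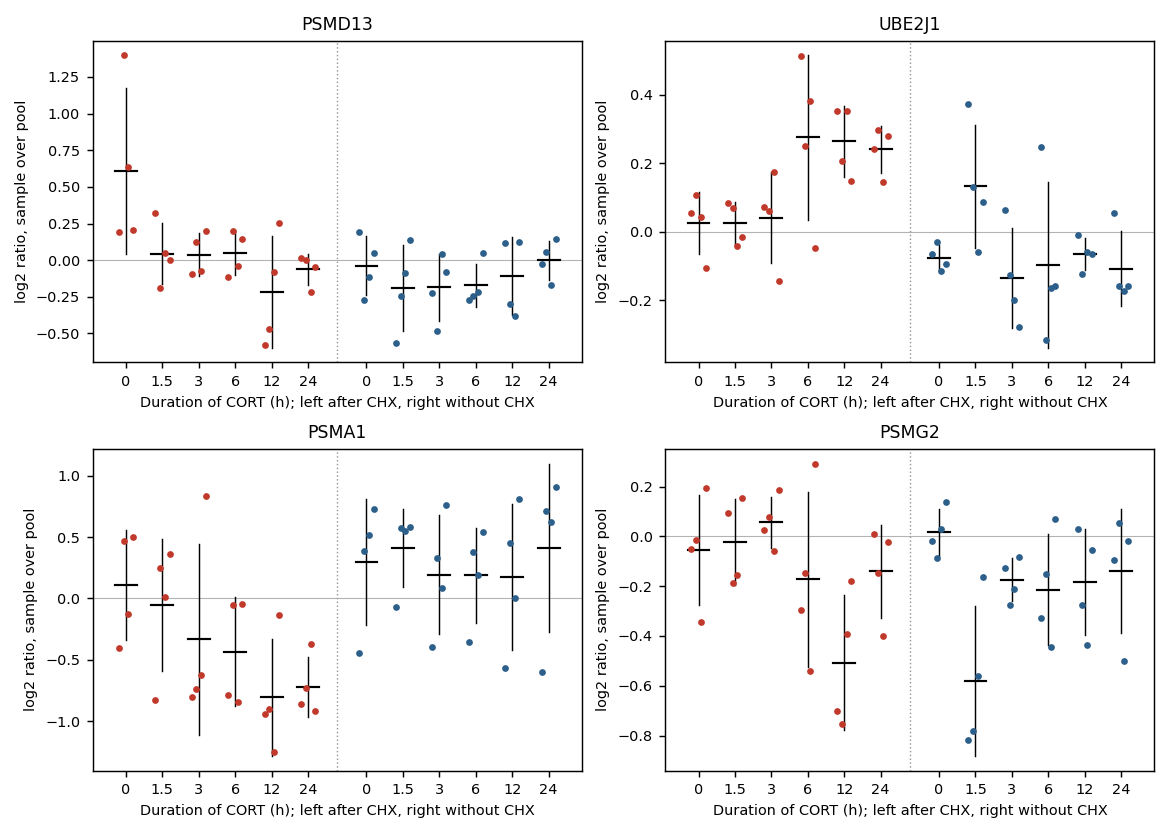
Log2 ratio to the pool on each array (points), with group mean (bar) and SD (line, n = 4), for the 3 called genes PSMD13, UBE2J1 and PSMA1 and for PSMG2, against the duration of CORT in h. Red points are the groups after CHX and blue points those without. PSMD13 is high in CHX alone (mean 0.61), UBE2J1 is above 0 on average in CHX then CORT 6, 12 and 24 h (0.28, 0.26 and 0.24), PSMA1 is lowest in CHX then CORT 12 h (mean -0.81), and PSMG2 is low in CORT 1.5 h (-0.58) and CHX then CORT 12 h (-0.51).

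Set against CORT of the same duration, cells given CHX first differed in UBE2J1 and PSMA1. Called members numbered 0 of 46 at 1.5 h, 0 at 3 h, 1 at 6 h, 0 at 12 h and 2 at 24 h by limma, against 0.393%, 0.161%, 3.92%, 1.41% and 4.98% of all features. At an unadjusted p under 0.05 the counts were 7, 1, 3, 4 and 4, beside 10.6%, 6.65%, 14.3%, 11.7% and 17.5% of all features. At 24 h the 2 called members made up 4.35% of the 46, near the share of all features.

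UBE2J1 had log2 ratios of 0.51, 0.25, 0.38 and -0.05 in CHX then CORT 6 h, against 0.25, -0.32, -0.16 and -0.16 in CORT 6 h. Replicates 1 to 3 after CHX lay above the highest CORT sample, replicate 2 only just, and replicate 4 lay among the CORT samples, with a difference of 0.37 (SE 0.10, 95% interval 0.16 to 0.58, adjusted p = 0.0313). At 24 h the ratios were 0.24, 0.30, 0.14 and 0.28 in CHX then CORT, against 0.06, -0.16, -0.17 and -0.16 in CORT. The groups did not overlap (10.4% of all features did not), and the difference was 0.35 (SE 0.10, adjusted p = 0.0416). The 12 h groups did not overlap either (0.35, 0.21, 0.35 and 0.15, against -0.01, -0.12, -0.06 and -0.07, with 4.31% of all features alike), but the difference of 0.33 (SE 0.10) was not called (adjusted p = 0.107).

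Over all 12 groups UBE2J1 was also the only gene of the system called by limma's F-test (adjusted p = 0.00898). That test called 939 features, 8.39% of all, and 2.17% of the members, and at an unadjusted p under 0.05 it gave 6 members (13%, against 19.5%). The mean of UBE2J1 was 0.03, 0.02, 0.04, 0.28, 0.26 and 0.24 after CHX with 0, 1.5, 3, 6, 12 and 24 h of CORT. Without CHX it was -0.08, 0.13, -0.14, -0.10, -0.06 and -0.11 over the same durations. Its within-group SD of 0.14 placed it among the least variable genes of the system.

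The UBE2J1 calls were small and, in this fit without pairing of samples, close to the threshold. The 6 h call was lost without any 1 of CHX then CORT 6 h replicates 1, 2 and 3 or CORT 6 h replicates 2, 3 and 4 (0.29 to 0.38, adjusted p = 0.0592 to 0.183), and the 24 h call without any 1 of CHX then CORT 24 h replicates 1, 2 and 4 or CORT 24 h replicates 2, 3 and 4 (0.33 to 0.35, adjusted p = 0.0715 to 0.127). Fits of the 2 groups alone gave adjusted p = 0.289 and 0.116. Without all arrays numbered 1 the differences were 0.41 (adjusted p = 0.034) and 0.40 (adjusted p = 0.0129). The 6 h call was lost without number 2 (0.31, adjusted p = 0.356) and number 3 (0.31, adjusted p = 0.454) and kept without number 4 (0.46, adjusted p = 0.0321). The 24 h call was lost without number 2, 3 or 4 (0.31 to 0.36, adjusted p = 0.173 to 0.402).

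PSMA1 had log2 ratios of -0.86, -0.73, -0.38 and -0.92 in CHX then CORT 24 h, against -0.60, 0.71, 0.63 and 0.91 in CORT 24 h. All 4 samples after CHX were below the pool, as was replicate 1 of CORT 24 h, which lay among them. The difference was -1.13 (SE 0.35, 95% interval -1.83 to -0.43, adjusted p = 0.0464), the largest of any gene of the system in the 16 comparisons. At 12 h the ratios were -0.94, -0.90, -1.25 and -0.13 after CHX, against -0.57, 0.45, 0.00 and 0.81 without, a difference of -0.98 that was not called (adjusted p = 0.159). After CHX its group means were 0.11, -0.05, -0.33, -0.43, -0.81 and -0.72 over 0, 1.5, 3, 6, 12 and 24 h of CORT, and without CHX they stayed between 0.18 and 0.41.

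PSMA1 also varied more within groups than most genes, with a within-group SD of 0.51 (97.1st percentile of all features). The 24 h call was lost without any 1 of CHX then CORT 24 h replicates 1, 2 and 4 or CORT 24 h replicates 2, 3 and 4 (-1.13 to -0.97, adjusted p = 0.095 to 0.162), and in a fit of the 2 groups alone (adjusted p = 0.0641). It was also lost with arrays median-centred (-1.15, adjusted p = 0.0673). Without all arrays numbered 1 the difference was -1.43 (adjusted p = 0.00329). The call was lost without number 2 (-1.03, adjusted p = 0.414), number 3 (-1.18, adjusted p = 0.204) and number 4 (-0.90, adjusted p = 0.2).

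The replicate number was treated as pairing the samples in CHX then CORT against CORT at 1.5, 6 and 24 h. The labels name no pairing, and it was inferred from these data, where the deviations of every same-numbered pair correlated above 0.1. At 1.5 h numbers 2 and 3 passed that bound only just (0.116 and 0.101). With the number as a block, UBE2J1 stayed called at 6 h (0.37, blocked adjusted p = 0.00367, against 0.0313 without the block). It also stayed called at 24 h (0.35, blocked adjusted p = 0.00449, against 0.0416). PSMA1 stayed called at 24 h (-1.13, SE 0.21, blocked adjusted p = 0.000237, against 0.0464). Under the block 4 further genes of the system were called. PSMG2 was higher at 1.5 h (0.56, blocked adjusted p = 0.00682, against 0.094 without the block), its ratios being 0.09, -0.19, -0.15 and 0.16 in CHX then CORT 1.5 h and the low values given above in CORT 1.5 h. PSMC5 was higher at 6 h (0.44, blocked adjusted p = 0.0322, against 0.296), with 0.15, 0.37, 0.03 and 0.52 in CHX then CORT 6 h, against -0.32, 0.19, -0.56 and 0.02 in CORT 6 h.

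UBE2N, the E2 that builds ubiquitin chains used in signalling, was lower at 6 h under the block (-0.26, blocked adjusted p = 0.0231, against 0.226). Its ratios were -0.26, 0.09, -0.29 and -0.21 in CHX then CORT 6 h, against -0.01, 0.32, 0.06 and 0.01 in CORT 6 h, so that each sample after CHX was below its own number. These ratios are means over 5 measured probes, of which 1 had a value on all 48 arrays. The probes of UBE2N did not agree, with correlations between pairs from -0.46 to 0.85. PSME4, an activator that opens the core without ubiquitin, was higher at 24 h (0.34, blocked adjusted p = 0.00446, against 0.173), with 0.25, 0.32, 0.19 and -0.02 in CHX then CORT 24 h, against 0.05, -0.32, -0.15 and -0.19 in CORT 24 h. The block moved the calls over all features in the same way: 186 features at 1.5 h, 957 at 6 h and 1569 at 24 h with it, against 44, 439 and 558 without. The number was treated likewise in CORT 24 h against untreated and in CHX then CORT 1.5 h and 6 h against CHX alone. In these comparisons 0 members were called with the block and without it. The features called there were 5, 2 and 378 with the block, against 2, 2 and 127 without.

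An F-test over 5 interaction contrasts, fitted without the block, compared the CORT series with and without CHX. It called 0 members and 0 features, and the fit with the block, which called PSMG2, is given further below. At an unadjusted p under 0.05 the F-test without the block gave PSMG2, UBE2F and UBE2J1, 6.52% of members against 4.68% of all features. PSMG2 and UBE2F were each low in 2 groups, CORT 1.5 h (means -0.58 and -0.52) and CHX then CORT 12 h (means -0.51 and -0.52). UBE2F had ratios of -1.13, -0.38, -0.34 and -0.23 in CHX then CORT 12 h, of which the first was far below the rest. PSMG2 had -0.70, -0.76, -0.39 and -0.18 there.

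The other subunits with known catalytic or structural roles did not pass the test in any of the 16 comparisons. PSMB5 and PSMB7, which carry the chymotrypsin-like and trypsin-like sites, kept group means between -0.10 and 0.13 and between -0.22 and 0.05. PSMD14, the deubiquitinase of the lid, had group means between 0.07 and 0.27 after CHX and between -0.12 and 0.14 without. It lay 0.28 above CORT after 1.5 h (SE 0.11, adjusted p = 0.296) and 0.27 above it after 24 h (SE 0.11, adjusted p = 0.134). Its 2 probes did not agree, with differences of 0.41 and 0.14 at 24 h and of 0.41 and 0.01 at 6 h. PSMA4, an outer-ring subunit, was 0.27 above CORT at 1.5 h (SE 0.10, adjusted p = 0.318).

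PSME3, an activator found in the nucleus, was above the pool in 11 of 12 group means and lay between 0.00 and 0.21 in CHX then CORT 24 h and between 0.28 and 0.40 in CORT 24 h. The groups did not overlap (10.4% of all features did not), but the difference of -0.24 was not called (SE 0.16, adjusted p = 0.462). UBE2L3, an E2 that serves ligases of the HECT and RBR types, had -0.39, 0.49, -0.34 and 0.22 in CHX then CORT 1.5 h, against 0.35, 0.88, 0.58 and 0.61 in CORT 1.5 h. Its difference of -0.61 was among the largest of the system, with an SE of 0.25 (adjusted p = 0.344).

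The classes were compared by the median difference over their members, beside that over all features, with no test because the members of a class are not replicates. Over the 16 comparisons the median for the core lay between -0.13 and 0.06 and was below 0 in 14. The median for the regulatory particle lay between -0.10 and 0.22, that for UBE2 between -0.06 and 0.05, and that for all features between -0.02 and 0.05. Taken as a mean over members in place of the median, the core was also below 0 in the other 2 comparisons, CHX then CORT 6 h against CHX alone (-0.02) and against CORT 6 h (-0.04). With the sign turned, the core medians would be above 0 in those 14 comparisons. A member differed by 0.10 in the median over genes and comparisons, smaller than its median SE of 0.16, and for all named genes these values were 0.10 and 0.15.

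**Figure D3:**
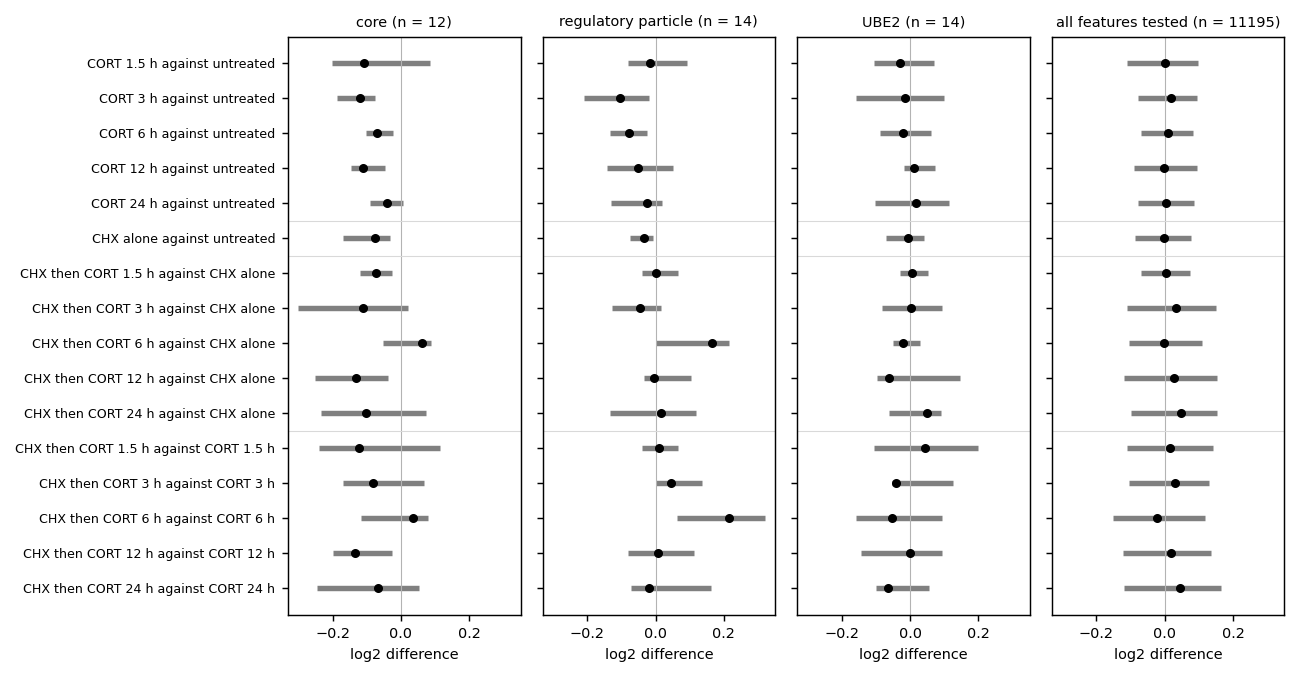
Median (point) and quartiles (bar) of the log2 differences over the core (12 genes), the regulatory particle (14), UBE2 (14) and all 11195 features in each of the 16 comparisons. The core medians lie below 0 in 14 of 16 comparisons, and the regulatory particle reaches 0.22 in CHX then CORT 6 h against CORT 6 h.

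The median core gene lay below untreated at each duration of CORT without CHX, at -0.12 to -0.04. Of 12 core genes, 8, 12, 11, 10 and 8 were below untreated from 1.5 h to 24 h. Taken per array, the core median averaged 0.13 ± 0.13 in untreated cells (SD). It averaged 0.07, 0.04, 0.11, 0.11 and 0.08 in CORT from 1.5 h to 24 h (SD 0.12 to 0.24). By that measure the gap to untreated was smaller at 6 h and 12 h. With a replicate number left out the core median reached 0.0097 at 6 h and -0.0022 at 12 h. At 3 h of CORT all 12 core genes and 12 of 14 regulatory particle genes were below untreated, against 8 of 14 UBE2 genes and 44.5% of all features. The medians there were -0.12 for the core, -0.10 for the regulatory particle and -0.01 for UBE2, with single differences from PSMA2 at -0.31 (SE 0.31) to PSMA7 at -0.01 within the core. No gene was called. The score of the axis described below, which many core genes follow, averaged -0.11 ± 1.17 in CORT 3 h and 0.35 ± 1.25 in untreated cells (SD). Its part in the result was not tested. All 5 of these comparisons share the untreated samples, as those after CHX share the samples of CHX alone, so they are not separate observations.

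The regulatory particle had its highest median difference, 0.22, in CHX then CORT 6 h against CORT 6 h, where 12 of its 14 genes were above 0, and 54.4% of all features were below 0. All 5 measured ATPases were among them: PSMC5 at 0.44, PSMC3 at 0.37, PSMC6 at 0.35, PSMC2 at 0.34 and PSMC1 at 0.23. PSMC3 had 0.20, 0.73, 0.15 and 0.06 after CHX, against -0.30, 0.14, -0.09 and -0.09 in CORT 6 h, so the ranges overlapped by a little. PSMC6 had 0.25, 0.67, 0.18 and 0.24 after CHX, against -0.16, 0.19, 0.01 and -0.12, and its replicate 2 was high in both groups. None of the 5 was called without the block, and PSMD10, at -0.17, and PSMD2, at -0.08, lay the other way. The 2 probes of PSMC5 gave 0.73 and 0.24. The core had a median of 0.04 and UBE2 one of -0.05 in this comparison. Taken per array, the core median lay the other way, at 0.02 ± 0.14 after CHX and 0.11 ± 0.23 in CORT 6 h (SD). At 12 h and 24 h the medians for the regulatory particle were 0.01 and -0.02.

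**Figure D4:**
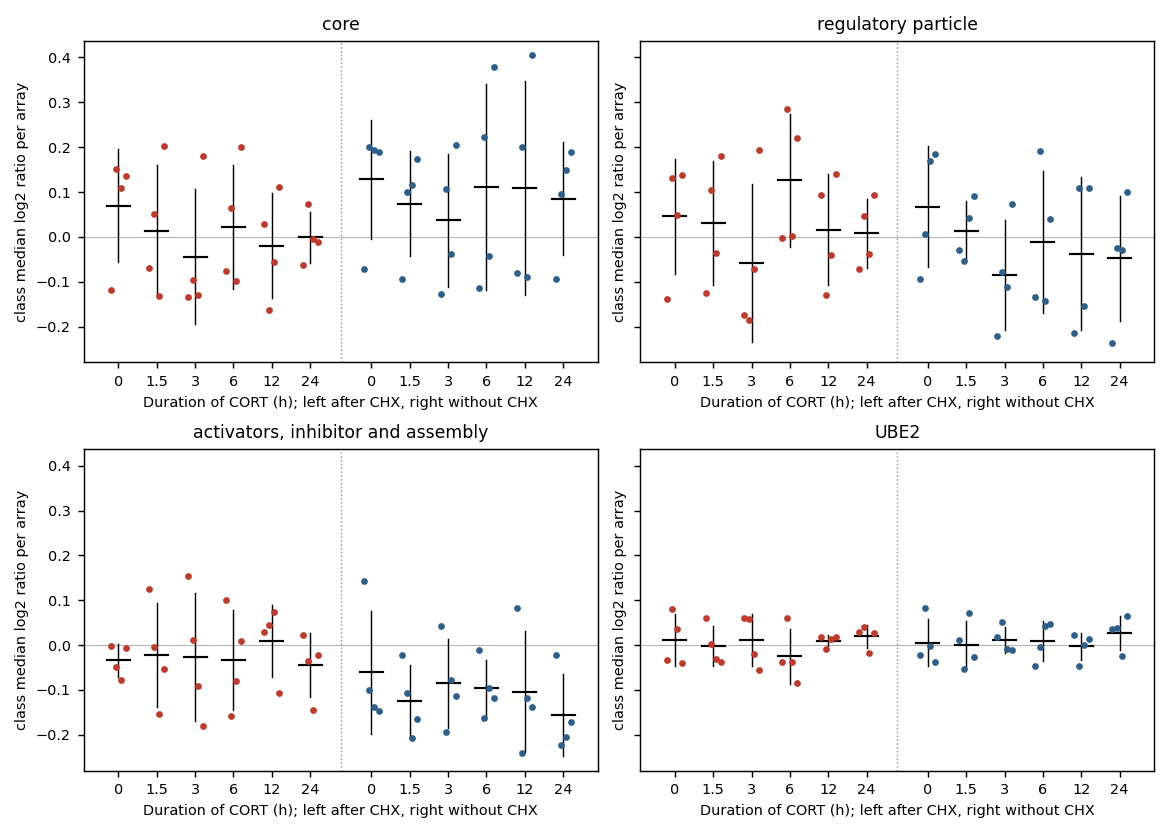
Median log2 ratio over the genes of a class on each array (points), with group mean (bar) and SD (line, n = 4), against the duration of CORT in h, in red after CHX and in blue without. The spread of the points within a group exceeds most differences between groups for the core and the regulatory particle, and the UBE2 medians stay between -0.08 and 0.08.

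Single genes varied about equally within groups in all classes, with a median within-group SD of 0.21 for the core, 0.25 for the regulatory particle and 0.22 for UBE2. The class medians did not. The class median per array had a median SD within groups of 0.14 for the core, 0.14 for the regulatory particle and 0.04 for UBE2. This spread went with the replicate number. The core median was below 0 on 11 of 12 arrays numbered 1 (mean -0.08 ± 0.04) and above 0 on 11 of 12 numbered 4 (mean 0.20 ± 0.11), and the regulatory particle was below 0 on 11 of 12 and above 0 on 12 of 12. Array number 1 was the lowest of its group in 8 of 12 groups, and number 4 the highest in 9 of 12, for the core and equally for the regulatory particle. For UBE2 these counts were 1 and 2 of 12. The labels do not say what same-numbered arrays have in common.

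PSMB2, a structural subunit of the inner ring, shows the size of this spread. It had -0.83, 0.35, 0.72 and 0.75 in the untreated samples, and -0.67, 0.72, 0.08 and 0.44 in CHX alone. The low sample is number 1 in both groups. Its within-group SD of 0.60 was the highest of the system (98.6th percentile of all features), followed by PSMA1, PSMC2 (0.46), PSMA2 (0.46) and PSMD7 (0.45). PSMA7 (0.12), PSMB4 (0.12), PSMG3 (0.13) and PSMB3 (0.14) were the steadiest.

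A single axis held 51.6% of the within-group spread of 8826 features that are no members of the system. Its score averaged -1.22 on arrays numbered 1, 0.34 on those numbered 2, 0.02 on those numbered 3 and 0.86 on those numbered 4. As a description over 48 arrays, which share the pool, PSMB2 followed that score with r = 0.98, PSMC2 with 0.95, PSMD7 with 0.93, PSMA1 with 0.93, PSMA2 with 0.90 and UBE2D3 with 0.90. UBE2G2, an E2 that acts in the disposal of proteins from the endoplasmic reticulum, ran against it (r = -0.94), as did PSME4 (-0.79), UBE2V1 (-0.73), PSMG1 (-0.71) and UBE2A (-0.71).

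The counts along this axis differed from class to class. Of 12 core genes 7 had r above 0.5 and 1, PSMA7, below -0.5, and of 14 regulatory particle genes 8 were above and 2 below. The 6 activators, inhibitor and assembly factors had 0 above and 3 below. UBE2 split, with 6 of 14 above and 7 below. In all, 45.7% of members were above 0.5 and 28.3% below -0.5, against 28.5% and 32.9% of all named genes. PSMD13 hardly followed the axis (r = 0.15), and UBE2J1 ran against it (-0.57).

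PSMA1 followed the axis closely, and the mean score was not the same in the groups between which PSMA1 was called. The score averaged -0.56 ± 0.70 in CHX then CORT 24 h and 0.23 ± 1.18 in CORT 24 h (SD, n = 4 each). The ranges overlapped (-1.60 to -0.07 and -1.52 to 0.94), and the difference in score was not tested. With the score as a covariate the PSMA1 difference was -0.78 (SE 0.14, adjusted p = 0.000103), against -1.13 (SE 0.35) without it. The score was taken from the within-group spread of the same arrays, which PSMA1 follows. Fitting it was therefore bound to lower the SE of PSMA1, and the smaller p is no firmer call. The share of all features called with the covariate is not given here, so its p-values are not weighed against those without it. With the covariate UBE2J1 differed by 0.39 after 6 h (adjusted p = 0.00213) and 0.29 after 24 h (adjusted p = 0.0212), and PSMD13 by -0.80 after 12 h (adjusted p = 0.00602) and -0.64 after 24 h (adjusted p = 0.0246).

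**Figure D5:**
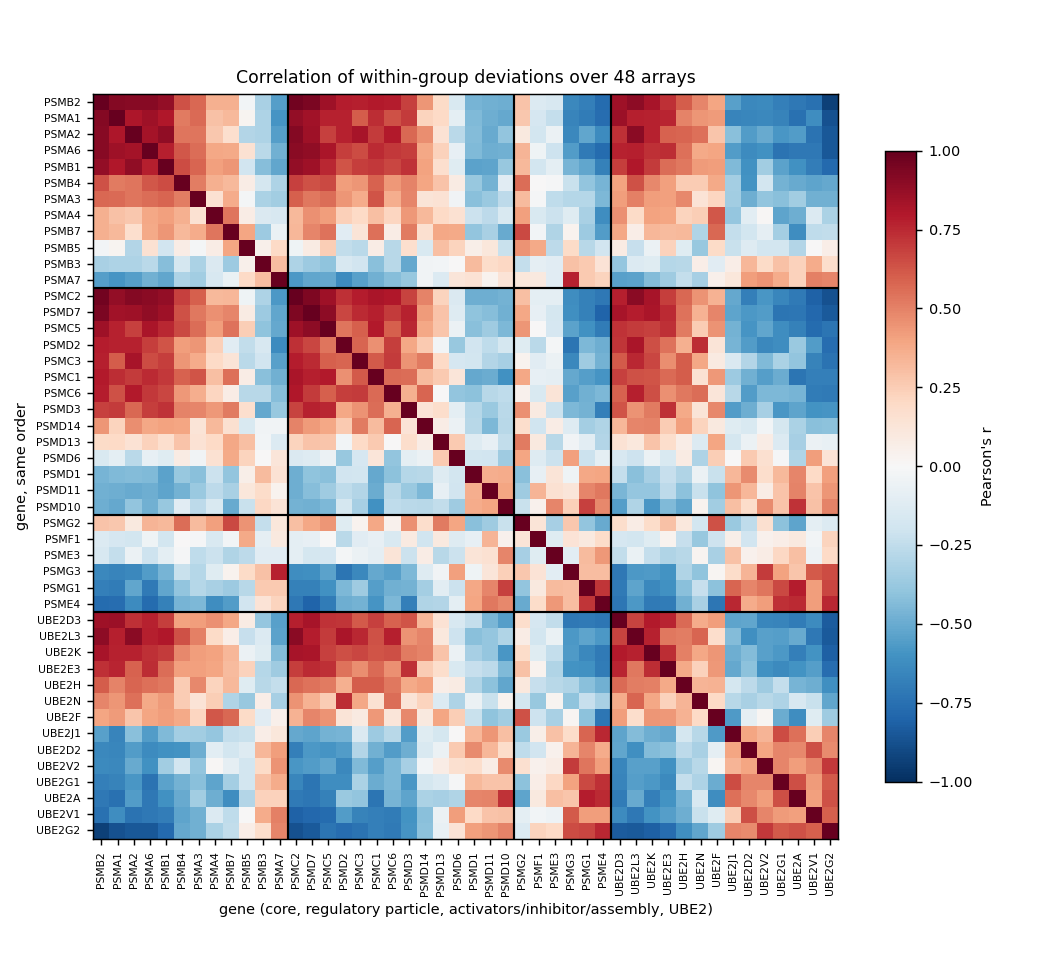
Pearson's r between pairs of the 46 tested genes (both axes, in the same order, lines between classes) of their deviations from the group mean over 48 arrays, from -1 (blue) to 1 (red). Core and regulatory particle genes such as PSMB2, PSMC2 and PSMD7 are positive with each other (0.97 for PSMB2 and PSMC2), and UBE2 falls into a positive and a negative set, with PSMB2 and UBE2G2 at -0.93.

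Pairs of genes show the same division. They rest on deviations on the same arrays as the axis, which many members follow, so they are no separate observation. The median correlation of within-group deviations was 0.32 for 66 pairs of core genes, 0.14 for 91 pairs within the regulatory particle, 0.20 for 168 pairs between core and regulatory particle genes and -0.16 for 91 pairs of UBE2 genes. Over 1035 pairs of members it was 0.03, and over all pairs of 4777 named genes -0.0009. The closest pair was PSMB2 and PSMC2 (r = 0.97), followed by PSMB2 and PSMD7 (0.94) and by PSMC2 and PSMD7 (0.93), each a pair that includes a regulatory particle gene. The most opposed pairs all involved UBE2G2, against PSMB2 (-0.93), PSMC2 (-0.87) and PSMA1 (-0.87). UBE2G2 had 0.42, -0.39, -0.52 and -0.56 in untreated samples, high in number 1 and low in the others, the opposite of PSMB2.

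Probes of a single gene often did not agree. For 26 members with at least 2 measured probes, 44 pairs of probes from different clones had a median correlation of 0.01, from -0.62 to 0.88, and 22 of the 44 were negative. The 2 probes of PSMC2 agreed best (r = 0.88), and those of PSMA6 (0.79) and PSMD2 (0.69) also agreed. Those of PSMC6 (-0.62) and PSMC3 (-0.55) were opposed, 2 of the ATPases given above. Of the other ATPases, PSMC1 had pairs from -0.42 to 0.27, and PSMC5 had 0.23. PSMB5 (-0.62), UBE2D3 (-0.62) and PSMD1 (-0.59) also had an opposed pair, while another pair of UBE2D3 agreed (0.86). Over all genes the median was 0.08 for 4198 pairs of different clones and 0.30 for 422 pairs of the same clone. Of the 44 pairs, 6 exceeded 0.5. PSMD13, UBE2J1, PSMA1, PSMG2 and PSME4 have no second measured probe against which to compare them.

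Of 41 other genes of the ubiquitin pathway on a list drawn up for this work, 19 were tested. Of these 19, 4 were called in at least 1 comparison, a larger share than the 9.05% of all features. That difference in share was not tested. SQSTM1, a receptor that carries ubiquitin-tagged cargo to autophagy, rose to 0.73 in CHX then CORT 24 h, against -0.18 in CHX alone (difference 0.92, SE 0.26, adjusted p = 0.0495). It was also higher there than in CORT 24 h (0.73 and -0.36, difference 1.09, adjusted p = 0.00871). SUMO3, a ubiquitin-like modifier, was lower in CHX then CORT 24 h than in CHX alone (-0.67, adjusted p = 0.0349) and in CORT 24 h (-0.61, adjusted p = 0.0375). UFM1, another modifier of this kind, was lower in CHX then CORT 24 h than in CHX alone (-0.55, adjusted p = 0.0342), and UBA3, a subunit of the enzyme that activates NEDD8, was higher in CHX then CORT 6 h than in CORT 6 h (0.65, adjusted p = 0.0294). The list median was between -0.0045 and 0.037 in each of these comparisons and in CHX then CORT 12 h against CHX alone.

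Markers of other cell types were set beside the calls. Ratios to a pool do not show whether a marker was at background, so the labelled cell type could not be checked by absent markers, and 12 of 17 pituitary markers had enough values to be tested. In CHX then CORT 24 h against CORT 24 h, where PSMA1 and UBE2J1 were called, the pituitary genes TSHB (-1.78), SCG3 (-1.63) and CHGA (-1.38) and the neuronal gene TUBB3 (-2.19) were lower. The list medians there were -0.06 for 12 pituitary, -0.36 for 6 fibroblast, 0.30 for 2 red blood cell, 0.06 for 3 endothelial, 0.06 for 3 immune and -0.26 for 4 neuronal and glial genes, and 0 fibroblast, red blood cell, endothelial or immune genes were called in any comparison. In CHX then CORT 6 h against CORT 6 h, where UBE2J1 was called and the regulatory particle had its highest median, 0 markers were called. The list medians there were -0.04 for pituitary, -0.33 for fibroblast (5 of 6 genes below 0), -0.21 for neuronal and glial (4 of 4), -0.16 for endothelial (3 of 3), -0.12 for immune (3 of 3) and 0.01 for red blood cell genes. In CHX then CORT against CHX alone, where PSMD13 was called, SCG3 was lower at 12 h (-1.03) and at 24 h (-1.57). The list medians at 12 h and 24 h were -0.01 and -0.11 for pituitary, -0.11 and -0.34 for fibroblast, -0.25 and -0.22 for neuronal and glial, 0.05 and 0.17 for endothelial, 0.10 and 0.12 for immune and 0.10 and 0.26 for red blood cell genes. The part of these markers in the results was not tested.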

How the data were processed

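Per the labels, antisense RNA amplified from each of the 48 samples was labelled with Cy3 and hybridised with a Cy5-labelled pool of all samples to a spotted cDNA array, 48 arrays in all. The authors deposited 1 log2 ratio per probe and array. Background correction, normalization, software and the direction and base of the logarithm are not given in the sources used here. Base 2 was assumed. For log2, 635 of 738691 values were logs of whole numbers up to 199, against 74 for the natural log and 120 for log10. So small a share of the values cannot settle the base. Array medians lay between -0.052 and 0.058 and SDs between 0.308 and 0.328, so the values had been centred and scaled before deposit. No counts or depths underlie these values, and their precision was judged from the spread between arrays.

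Of 19200 probes, 10601 had a symbol and 8599 had none, and 10455 of the probes with a symbol matched the current annotation by gene ID. Exact zeros (2.34% of 756747 values) were set to missing, because 2535 probes held nothing but zeros and 36 held zeros beside other values. This choice was made after the values were seen, and keeping zeros is an alternative. Probes of a gene were averaged, and a feature needed values on at least 3 arrays of each of 12 groups, which left 11195 of 15027. Missing values, 0.866%, were left out of the fit of that gene.

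All adjusted and unadjusted p-values are two-sided and come from limma 3.58.1 run in R 4.3.3 with version 1.17.8 of the package data.table, with 1 mean per group and up to 36 residual degrees of freedom. Adjustment ran over all features within a comparison. There were 16 comparisons: 5 of CORT with untreated, CHX alone with untreated, 5 of CHX then CORT with CHX alone, and 5 of CHX then CORT with CORT of the same duration. F-tests covered the 12 groups and the 5 interaction contrasts. On simulated data for CORT 24 h against untreated with 11195 features, 37 of 100 changes of 0.5 log2 and 86 of 100 of 1 log2 were recovered. The simulated noise was independent between features, without the shared axis of the real arrays, and both sets of changes were planted together. These rates are therefore not the power of the real comparisons.

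Deviations from group means correlated with a median of 0.42 between arrays of the same number and -0.10 between others. In 6 of 16 comparisons every same-numbered pair exceeded 0.1, and there the number was treated as pairing. The axis of within-group spread was the first principal component of those deviations over features that are no members. Alternatives were other probe rules, filters, normalizations, array weights, the replicate block, the axis as covariate, 2-group fits, and fits without single arrays or numbers. The rule for named genes took every member called, the 3 of each class with the smallest F-test p, the 3 with the largest difference in each of 4 families of comparisons, and members with set roles such as the catalytic subunits. It gave 17 genes. Other members named with values were chosen after their values were seen. The members and lists were chosen with earlier results of these data known. Reference sequences were not used here.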

Additional observations from a re-analysis of the deposited data

Results flagged for a closer look

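For the 17 named genes and the class medians, 22 of 250 groups of 4 arrays held 1 array far from the other 3, where chance alone marks about 1 group in 20. In PSMA1, CORT 1.5 h replicate 1 was at -0.066 with the others between 0.5474 and 0.5799, and CHX then CORT 3 h replicate 4 was at 0.8323 with the others between -0.8023 and -0.6261. Both follow the numbering described above, low in number 1 and high in number 4.

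Arrays numbered 4 stood high in further groups. CHX then CORT 3 h replicate 4 was at 0.3729 for PSMC5, 0.4378 for UBE2L3 and 0.1811 for the core median. PSMC5 stood high in number 4 also in CORT 1.5 h (0.3102) and CORT 3 h (0.269). PSMB5 did so in CHX then CORT 6 h (0.2194) and 12 h (0.2363), PSMB7 in untreated cells (0.235) and PSMD13 in CORT 6 h (0.0466).

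Arrays numbered 1 stood low for the core median in CHX alone (-0.1187) and in untreated cells (-0.0715), for UBE2L3 in untreated cells (-0.3035), for PSMA6 in CHX then CORT 24 h (-0.2367) and for UBE2F in CHX then CORT 12 h (-1.1251). They stood high for the median of activators, inhibitor and assembly factors in untreated cells (0.1433), for PSMB5 in untreated cells (0.2265) and for UBE2J1 in CORT 24 h (0.0556). Arrays numbered 2 stood apart for PSMB3 in CHX then CORT 24 h (-0.3048), PSMB5 in CORT 3 h (-0.4159) and UBE2N in CHX then CORT 1.5 h (0.1466).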

How the results depend on the processing

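No difference of a named gene changed direction where it was called. Apart from leaving out arrays, 173 of 196 differences of named genes under an alternative stayed on their side of the threshold, 17 passed it and 6 lost it. Most of these differences were not called in the main fit, so most stayed by remaining uncalled. In fits without single arrays or numbers, 175 stayed on their side, 1 passed the threshold and 40 lost it. The cause was not tested where no cause is given.

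Members called numbered, with array weights, 2 in CORT 1.5 h against untreated, 8, 2 and 2 in CHX then CORT 3, 12 and 24 h against CHX alone, 1, 2 and 4 in CHX then CORT 1.5, 12 and 24 h against CORT, and 18 over the 12 groups. With the replicate block they numbered 1 in CORT 1.5 h against untreated (PSMG2, -0.5965, adjusted p = 0.0241), 4 and 2 in CHX then CORT 12 and 24 h against CHX alone, 1, 3 and 3 in CHX then CORT 1.5, 6 and 12 h against CORT, 9 over the 12 groups (2510 features, against 939 without it) and 1 (PSMG2) for the interaction (31 features, against 0). Over all features the block called 5 in CORT 1.5 h against untreated, where the fit without it called 0. It called 560 and 757 features in CHX then CORT 12 and 24 h against CHX alone, against 126 and 257. At 12 h against CORT it called 649, against 158. At 1.5 h against untreated, at 12 and 24 h against CHX alone and at 12 h against CORT, the samples share only a number, and 34 of 48 arrays correlated best with an array of their own number. In the 6 comparisons treated as paired the block changed no call beyond those given above. With the axis score as covariate the members called numbered 1, 3 and 2 in CHX then CORT 6, 12 and 24 h against CHX alone, 2, 3, 3 and 6 in CHX then CORT 1.5, 6, 12 and 24 h against CORT, 10 over the 12 groups and 1 for the interaction. The shares of all features with array weights and with the axis score are not given here. Those member counts are therefore no result about the system.

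Fits of the 2 groups alone, with fewer samples, called 0 members in CHX then CORT 12 and 24 h against CHX alone and 0 in 6 and 24 h against CORT. With 1 probe per gene 2 members were called in CHX then CORT 6 h against CORT (UBE2N at -0.4825 beside UBE2J1). With values on all 48 arrays 2 were called over the 12 groups. With arrays median-centred 1 was called in CHX then CORT 24 h against CORT. UBE2J1 kept its call there, and PSMA1 lost it (-1.152, adjusted p = 0.0673). Counts with quantile normalization, exact zeros kept or a looser filter stayed within 1.5 times. The shares of all features in the settings of this paragraph are not given here, so these member counts are no result about the system.

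Without 1 array or 1 number, the counts ranged over 0 to 1 in CHX then CORT 12 h and 24 h against CHX alone, 0 to 1 at 1.5, 6 and 12 h against CORT, 0 to 2 at 24 h and 0 to 4 over the 12 groups, and PSMG2 was called once at 1.5 h against CORT (adjusted p = 0.0258). The shares of all features in these fits are not given here either, so the ranges are no result about the system. PSMD13 ranged from -1.115 to -0.477 at 12 h and from -0.8341 to -0.4064 at 24 h, UBE2J1 from 0.2928 to 0.4874 at 6 h and from 0.3133 to 0.4028 at 24 h, and PSMA1 from -1.471 to -0.901.

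Class medians moved by more than their spread in few cases. With means over members the core was at -0.1637 in CHX then CORT 24 h against CORT, and UBE2 at -0.01969, -0.03723 and -0.02624 in CHX then CORT 12 h against CHX alone, 12 h against CORT and 24 h against CORT. With 1 probe per gene the core was at -0.2444 in CORT 1.5 h against untreated, and UBE2 at 0.06232 in CHX then CORT 12 h against CHX alone and at 0.1002, 0.05985, 0.06174 and 0.009335 at 1.5, 3, 12 and 24 h against CORT. Median-centring put UBE2 at -0.02146 at 12 h against CORT. Without 1 number the regulatory particle ranged from -0.119 to 0.1351 at 12 h against CHX alone and from -0.1468 to 0.2574 at 12 h against CORT. UBE2 ranged from -0.06131 to 0.008938 in CHX alone, from -0.07277 to -0.0003708 and from -0.009737 to 0.07563 at 12 and 24 h against CHX alone, and from 0.003888 to 0.1024, -0.03693 to 0.001396, -0.08466 to -0.0175 and -0.07893 to -0.01341 at 1.5, 3, 12 and 24 h against CORT.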

Other observations

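The 3 genes that could not be tested had values on 45 arrays (PSMA5), 36 arrays (PSMD9) and 40 arrays (UBE2O). PSMA5, an outer-ring subunit of the core, lay between -0.42 and 0.39. UBE2O, an enzyme that combines conjugating and ligase activity, had -0.44, -1.01 and -0.01 in the CORT 1.5 h samples with a value, and PSMD9, an assembly chaperone of the regulatory particle, had -0.96, -0.50 and -0.19 in those of CORT 6 h.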
